A study of Mus musculus with 14 samples.

Results

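The platelet-derived growth factor (PDGF) family in the outer layer of the fetal mouse heart is described here by its 6 genes: the ligands Pdgfa, Pdgfb, Pdgfc and Pdgfd, and the receptors Pdgfra and Pdgfrb. They were chosen by symbol and not by a cutoff on measured values, though earlier results of these data were known. All 6 were found among the 15894 genes of the table. Every member passed the filter on low values in each comparison. In the male comparison Pdgfc did so only through ventral libraries 5, 6 and 7.

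The study profiled RNA of epicardium dissected together with the subepicardium from mouse hearts at E16.5, and set the ventral side of the heart against the dorsal side and males against females. Each library holds poly(A) RNA of a pool of 2 hearts, with no treatment. There were 3 female ventral and 3 female dorsal libraries (pools 1 to 3), 4 male ventral libraries (pools 4 to 7) and 3 male dorsal libraries (pools 4 to 6). The remaining male library, numbered 7, is dorsal by its title and source name and ventral by its tissue field. It is called the unsettled library below, and its values are printed but enter no group.

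All groups carry the genotype label Tbx18Cre, a Cre driver active in the epicardium and its progenitors, while the study's design text calls the hearts wild type; whether a Cre allele was present was not tested here. Pool numbers and the form of the titles differ between the sexes, so that whatever goes with them cannot be told apart from sex. The pools came from at least 3 litters. Within one sex, p-values measure the spread between pools. Fits over both sexes took the ventral and dorsal libraries of a pool as independent. In the comparison of the sexes most pools therefore count with both of their libraries, and those p-values do not measure the spread between pools alone.

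The libraries held 13918995 to 25221314 reads on the listed genes. Levels are given as normalized CPM, read counts scaled to a common library size, and 3 reads, taken as the floor of detection, were worth 0.135 to 0.253 normalized CPM. In the female comparison 4007 of 14411 genes passed the test and in the male comparison 0 of 14917 (2083 at an unadjusted p under 0.05). Epicardial markers were present in all groups, with none of the 10 at the floor, and their summed level was 1777 to 2858 in female ventral libraries, 282 to 636 in female dorsal, 2000 to 6108 in male ventral and 1635 to 4236 in male dorsal libraries. Cardiomyocyte markers were abundant as well, with 8 ventricular markers summing to 15318 to 40336 over the settled libraries, so the dissected layer was mixed. Female dorsal library 1 stood apart by atrial markers, whose 4 genes summed to 12455 there and to 474 to 1992 in the other libraries.

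PDGF ligands act as disulfide-linked dimers on receptor tyrosine kinases of neighbouring cells. PDGF-A and PDGF-C signal mainly through the α receptor and PDGF-D through the β receptor, while PDGF-B binds both. In the developing heart the α receptor is known for its part in the formation of fibroblasts from the epicardium, and the β receptor for its part in the formation of the mural cells that coat coronary vessels.

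Of the 4 ligands, PDGF-A and PDGF-B are cut inside the cell by furin-like proteases, whereas PDGF-C and PDGF-D are secreted in a latent form that extracellular proteases open. On the GRCm38 genome, Pdgfa (ENSMUSG00000025856) lies on chromosome 5 from 138976014 to 138997370 on the minus strand. Pdgfb (ENSMUSG00000000489) lies on chromosome 15 from 79995874 to 80014977, also on the minus strand. The latent ligands are on plus strands, Pdgfc (ENSMUSG00000028019) on chromosome 3 from 81036416 to 81214040 and Pdgfd (ENSMUSG00000032006) on chromosome 9 from 6168584 to 6378850. Both receptors are on plus strands too: Pdgfra (ENSMUSG00000029231) on chromosome 5 from 75152292 to 75198215, and Pdgfrb (ENSMUSG00000024620) on chromosome 18 from 61045150 to 61085061. Pdgfa and Pdgfra thus share a chromosome but lie far apart on it, and the other members are each on a chromosome of their own.

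Reads of some members could not be assigned to them alone if strand was not used in counting, which the sources used here do not state. Of all 60-base windows along the exons of Pdgfa, 20.3% also lie in exons of its antisense neighbour 6330403L08Rik, which was listed at 1.06 to 6.62 normalized CPM. The shared fraction was 4.49% for Pdgfra (with Gm42802 and Gm42803) and 1.75% for Pdgfc (with Gm16000), and these 3 neighbours were not in the table. For Pdgfb, Pdgfd and Pdgfrb it was 0.

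Promoter sequence from RefSeq (GRCm38.p6) was matched for 4 of the members. It is shown for Pdgfra, a receptor higher on the ventral side of female hearts, and for Pdgfd, a ligand called in no comparison. Pdgfrb, higher ventrally in females as well, had no matched promoter. Each sequence gives the 250 bases before the annotated start, 5′ to 3′ on the plus strand. Capitals mark the letters of the motif found: CANNTG, the E-box, in Pdgfra (chr5:75152001-75152250) and TATAAA, the TATA box, in Pdgfd (chr9:6168236-6168485).
Pdgfra: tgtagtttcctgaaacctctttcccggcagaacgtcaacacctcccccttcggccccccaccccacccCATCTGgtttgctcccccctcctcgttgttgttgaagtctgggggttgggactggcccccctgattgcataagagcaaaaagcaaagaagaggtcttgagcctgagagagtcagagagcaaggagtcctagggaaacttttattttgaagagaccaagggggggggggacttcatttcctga
Pdgfd: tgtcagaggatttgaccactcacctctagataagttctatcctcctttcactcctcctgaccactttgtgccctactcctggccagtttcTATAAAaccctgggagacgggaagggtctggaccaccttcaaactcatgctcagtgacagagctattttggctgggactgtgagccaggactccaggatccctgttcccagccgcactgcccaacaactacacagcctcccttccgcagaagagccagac
The E-box letters begin 182 bases before the start of Pdgfra and the TATA letters 160 bases before that of Pdgfd. On both strands, CANNTG was found in 66.2% of 32851 promoter windows of this length and TATAAA in 12.4%. Neither of the windows shown holds CCAAT (found in 33.8% of windows) or GGGCGG (32.7%). GC content was 54.4% for the Pdgfra window and 53.6% for that of Pdgfd. These matches are letters in a window and say nothing of binding.

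Compared per kilobase of exon, Pdgfa was the most abundant member in 14 of 14 libraries and Pdgfc the least abundant in 14 of 14. Pdgfa stood at 17.8 ± 2.94 normalized CPM per kilobase over all libraries (mean ± SD, n = 14). Pdgfd (7.31 ± 2.65), Pdgfra (6.44 ± 1.94) and Pdgfrb (4.604 ± 1.18) followed, exchanging the next ranks between libraries: Pdgfd came second in 8 libraries, Pdgfra in 5 and Pdgfrb in 1. Pdgfd differed from Pdgfra, and Pdgfra from Pdgfrb, by less than the SD of the higher one. Pdgfb followed at 1.80 ± 0.850, in the fifth place in 14 of 14 libraries, and Pdgfc was lowest at 0.264 ± 0.348. With the longest transcript as the length in place of the union of exons, Pdgfa rose to 27.0 and Pdgfra to 9.45 per kilobase, so that Pdgfra instead of Pdgfd came second in 11 of the 14.

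Within the 4 ligands, Pdgfa therefore made up most of the summed level per kilobase in every library. Its share ranged from 55.2% to 74.3% (median 68.2%), followed by Pdgfd with 17.6% to 41.8% (median 25.0%). Pdgfb held 0.866% to 12.3% and Pdgfc 0.0312% to 5.14%. Pdgfd took 21.6% ± 3.92 of ligand transcripts in female ventral libraries and 20.9% ± 3.84 in female dorsal (SD, n = 3 each), against 28.3% ± 8.26 in male ventral (n = 4) and 33.1% ± 8.42 in male dorsal libraries (n = 3). These ranges overlap between the sexes.

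**Figure D1:**
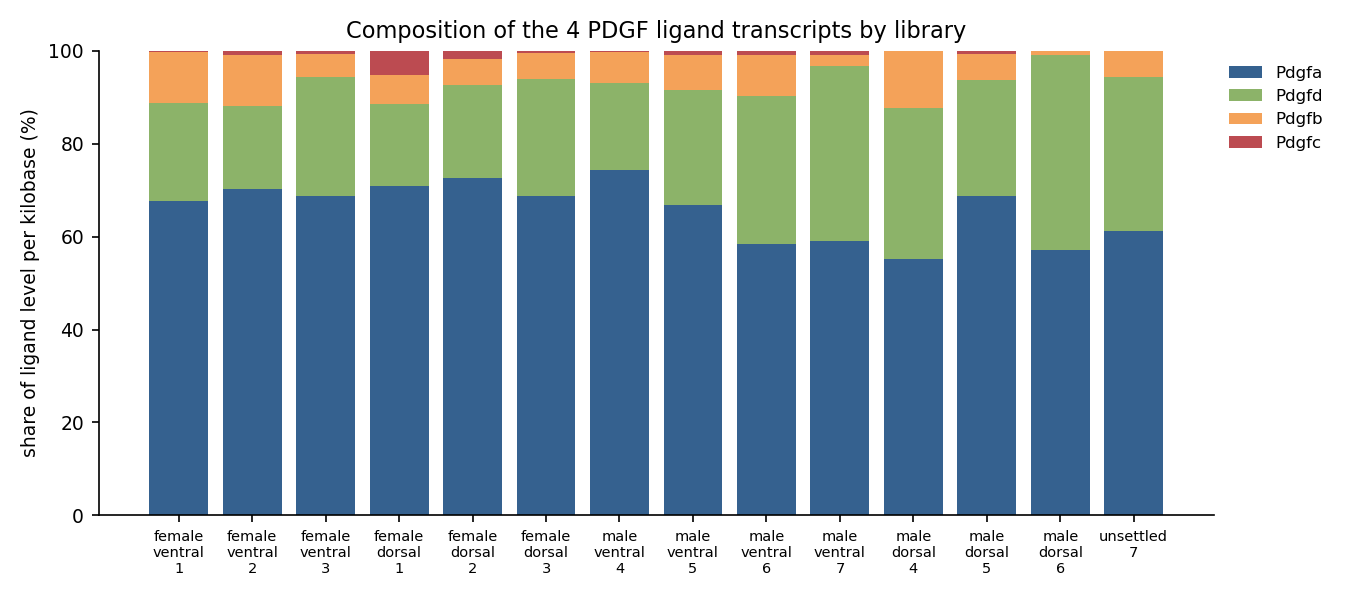
Share (%) of the summed level per kilobase of exon that each of the 4 PDGF ligands took in each library; bars are single libraries and add up to 100%. Pdgfa holds 55.2% to 74.3% of every bar, and the Pdgfc share is largest in female dorsal library 1, at 5.14%.

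Pdgfa, the main ligand of the α receptor, was read in female ventral libraries 1 to 3 at 46.6, 60.8 and 68.7 normalized CPM and in female dorsal libraries 1 to 3 at 59.3, 56.9 and 62.8. In male hearts it stood at 59.0, 55.8, 70.1 and 51.0 in ventral libraries 4 to 7 and at 36.2, 47.3 and 48.1 in dorsal libraries 4 to 6, and at 55.7 in the unsettled library. The 2 female groups overlapped, whereas in males every ventral library lay above every dorsal one. On the log2(value + 1) scale, the ventral minus dorsal difference was -0.04 in females (limma adjusted p = 0.881) and 0.42 (95% interval 0.04 to 0.80) in males, where it did not pass the test (unadjusted p = 0.0341, adjusted p = 0.323). Groups that do not overlap with the ventral side higher were found for 6.18% of all genes in the male comparison.

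Pdgfb, which is known in vessels as the endothelial signal that recruits pericytes, was 10.04, 12.5 and 6.60 normalized CPM in female ventral libraries and 6.997, 5.85 and 6.71 in female dorsal ones. Male ventral libraries gave 7.13, 8.32, 14.02 and 2.66, male dorsal libraries 10.8, 5.06 and 0.972, and the unsettled library 6.89. Its level was even among the female dorsal pools and ranged widely among male dorsal pools, where the lowest library, number 6, held 20 reads and the SD was 4.92 around a mean of 5.60. The groups overlapped in both sexes, with log2 differences of 0.48 in females (adjusted p = 0.251) and 0.63 in males (95% interval -0.76 to 2.01, adjusted p = 0.659). Without male dorsal library 6 the male difference was -0.07.

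Pdgfc, a latent ligand opened by tissue plasminogen activator, held 0 to 151 reads a library and was at the floor of detection in 2 of 14 libraries. Female ventral libraries held 0.287, 1.41 and 1.03 normalized CPM and female dorsal libraries 6.997, 2.37 and 0.824. In males the ventral libraries held 0.281, 1.38, 1.78 and 1.34, the dorsal libraries 0.0333, 0.759 and 0.213 and the unsettled library 0.0966. Male dorsal library 4 had 0 reads of Pdgfc, which allows a level of up to 0.233 (3 reads, counting error only), and the unsettled library was at the floor as well. The highest value was in female dorsal library 1, the library with the high atrial markers, whose part in the level of Pdgfc was not tested.

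The regional difference of Pdgfc did not pass the test in either sex and pointed in opposite directions. In males Pdgfc passed the filter only through ventral libraries, so its direction there is tied to the filter. It was -0.99 on the log2(value + 1) scale in females (95% interval -2.16 to 0.18, adjusted p = 0.185) and 0.70 in males (-0.15 to 1.54, adjusted p = 0.427). Without female dorsal library 1 the female difference was -0.43 (adjusted p = 0.525). The difference between the sexes in the regional change was 1.69 (SE 0.662, unadjusted p = 0.0227, limma adjusted p = 0.226), and 1.12 without that library (adjusted p = 0.425).

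Pdgfd, the latent ligand of the β receptor, was 14.8, 15.7 and 25.95 normalized CPM in female ventral libraries and 14.8, 15.9 and 23.2 in female dorsal libraries of the same pools. Male ventral libraries gave 15.1, 20.98, 38.8 and 32.9, male dorsal libraries 21.5, 17.3 and 35.5, and the unsettled library 30.5. Pool 3 was the highest female pool and pool 6 the highest male pool on both sides. Regional differences were 0.04 in females (95% interval -0.56 to 0.65, adjusted p = 0.921) and 0.09 in males (-0.68 to 0.86, adjusted p = 0.926). With the GC and length trend removed the female difference was 0.36 (adjusted p = 0.353). A regional difference of Pdgfd within these intervals was not detectable at this spread between pools.

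**Figure D2:**
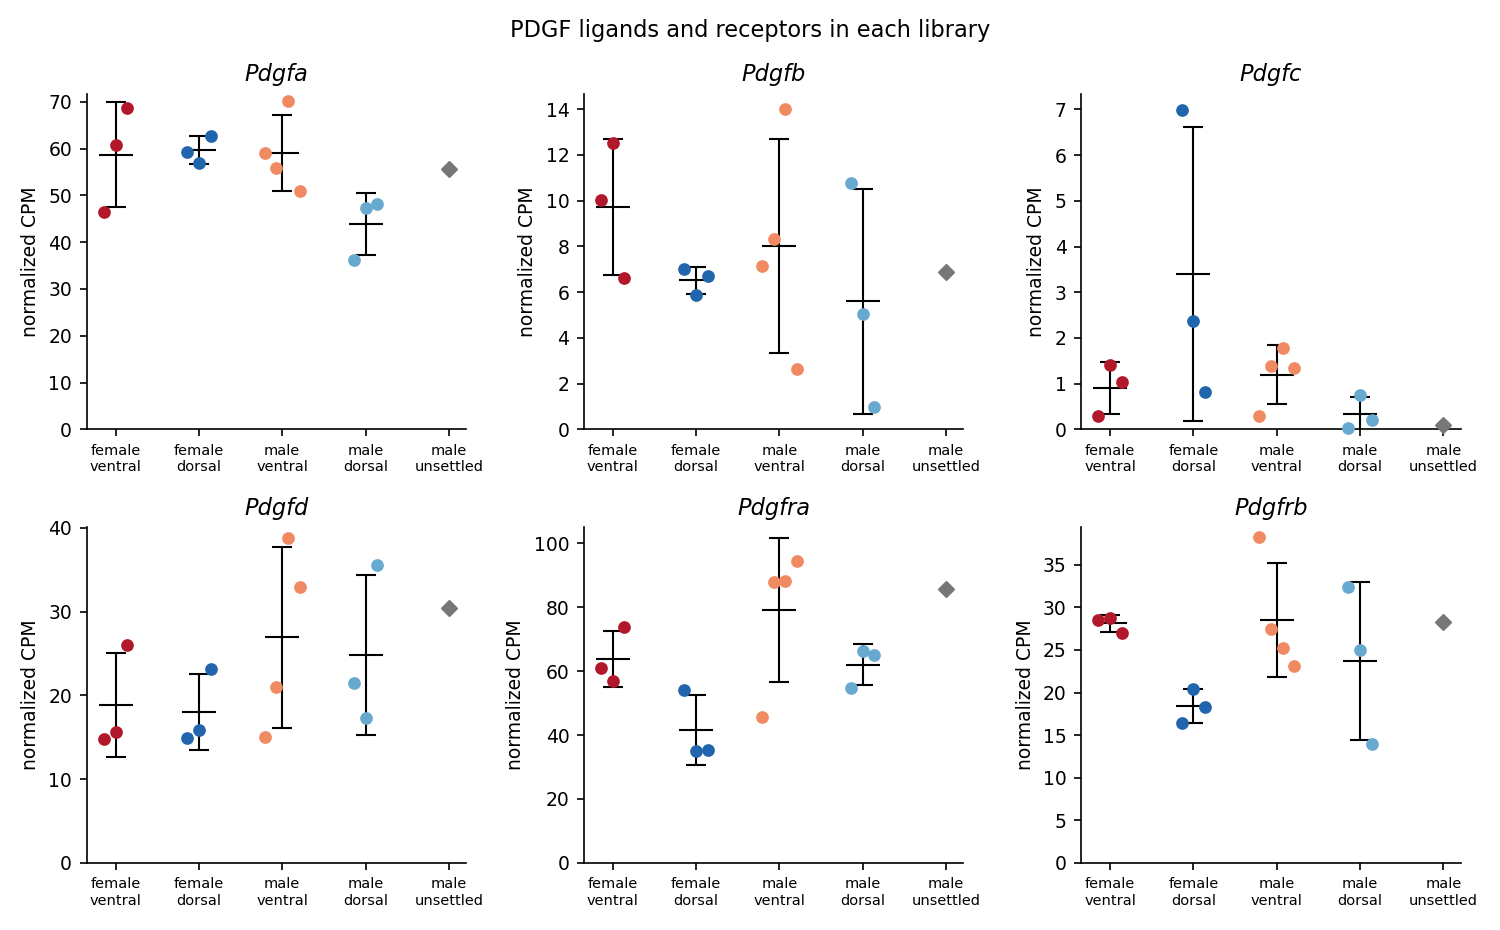
Normalized CPM (vertical axes, from 0) of the 6 PDGF genes in each library; circles are libraries, black bars the group mean ± SD, and the grey diamond is the male library of unsettled region. The female ventral and dorsal groups do not overlap for Pdgfra and Pdgfrb, as for 23.2% of all genes with the ventral side higher. The single high value of Pdgfc is female dorsal library 1 at 6.997.

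The receptors were the members with a regional difference that passed the test, in a fit that did not pair the 2 sides of a pool. Both were higher on the ventral side of female hearts, Pdgfra by 0.63 and Pdgfrb by 0.59 on the log2(value + 1) scale (1.55-fold and 1.51-fold). They were 2 of 6 members, beside 14.5% of all genes called higher ventrally in this comparison (27.8% in either direction), and 0 members were called higher dorsally.

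Pdgfra, the receptor tyrosine kinase carried by cardiac fibroblasts and their epicardial precursors, was 61.0, 56.9 and 73.8 normalized CPM in female ventral libraries 1 to 3 and 54.1, 35.1 and 35.3 in female dorsal libraries 1 to 3. All ventral values exceeded all dorsal values, though the lowest ventral and the highest dorsal library were close. The difference was 0.63 (SE 0.198, 95% interval 0.19 to 1.07, limma adjusted p = 0.0399), and groups without overlap and higher ventrally were found for 23.2% of all genes. Pdgfra was higher ventrally in 3 of 3 same-numbered female pairs, by 0.17 to 1.04, as 31.0% of all genes were.

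In male hearts Pdgfra was 45.5, 87.9, 88.2 and 94.5 normalized CPM in ventral libraries 4 to 7, 54.8, 66.3 and 65.0 in dorsal libraries 4 to 6, and 85.7 in the unsettled library. The ventral library of pool 4 lay below all dorsal libraries, while the other 3 lay above them. The difference was 0.30 (95% interval -0.25 to 0.84, adjusted p = 0.594). It was 0.34 lower than in females, but this sex difference of the regional change did not pass the test (SE 0.341, adjusted p = 0.689).

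Pdgfrb, the receptor of pericytes and vascular smooth muscle cells, was even among female ventral libraries at 28.5, 28.8 and 27.0 normalized CPM, and lower in female dorsal libraries at 16.46, 20.4 and 18.2. The groups were well apart, and the spread within each was small (ventral 28.1 ± 0.965, dorsal 18.4 ± 1.99, SD, n = 3). Female groups without overlap and higher ventrally were found for 23.2% of all genes. The difference was 0.59 (SE 0.180, 95% interval 0.19 to 0.99, limma adjusted p = 0.0357).

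Male values of Pdgfrb were 38.2, 27.5, 25.2 and 23.2 in ventral libraries 4 to 7, 32.4, 25.0 and 13.9 in dorsal libraries 4 to 6, and 28.3 in the unsettled library. Pool 4 was the highest on both sides, and the groups overlapped (difference 0.31, 95% interval -0.34 to 0.95, adjusted p = 0.643; -0.02 without male dorsal library 6). Pdgfrb was higher ventrally in 6 of 6 same-numbered pairs, by 0.13 to 0.81, as 9.36% of all genes were, with Pdgfra and Pdgfa at 5 of 6, Pdgfb and Pdgfc at 4 of 6 and Pdgfd at 3 of 6. The difference between sexes in its regional change was -0.29 (adjusted p = 0.759).

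Both female calls lay near the threshold. The adjusted p of Pdgfra ranged from 0.0117 to 0.131 over 17 alternative settings, of which 7 kept the call, and that of Pdgfrb from 0.0237 to 0.127, of which 8 kept it. The 2 differences stayed above 0 in all of them, at 0.51 to 0.83 for Pdgfra and 0.42 to 0.67 for Pdgfrb. With the pool number as a block, Pdgfra kept its call (adjusted p = 0.0318) and Pdgfrb fell just short (adjusted p = 0.05004). By contrast, edgeR, limma-voom and eBayes without a trend called Pdgfrb and did not call Pdgfra. Removing the trend of each library on GC content and gene length ended both calls (adjusted p = 0.0711 and 0.0932). With female dorsal library 1 left out, the difference of Pdgfra was 0.83 (adjusted p = 0.0117) and that of Pdgfrb 0.52 (adjusted p = 0.0931). Leaving out any of the other 5 female libraries ended both calls, with adjusted p of 0.0630 to 0.131 for Pdgfra and 0.0612 to 0.0991 for Pdgfrb.

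**Figure D3:**
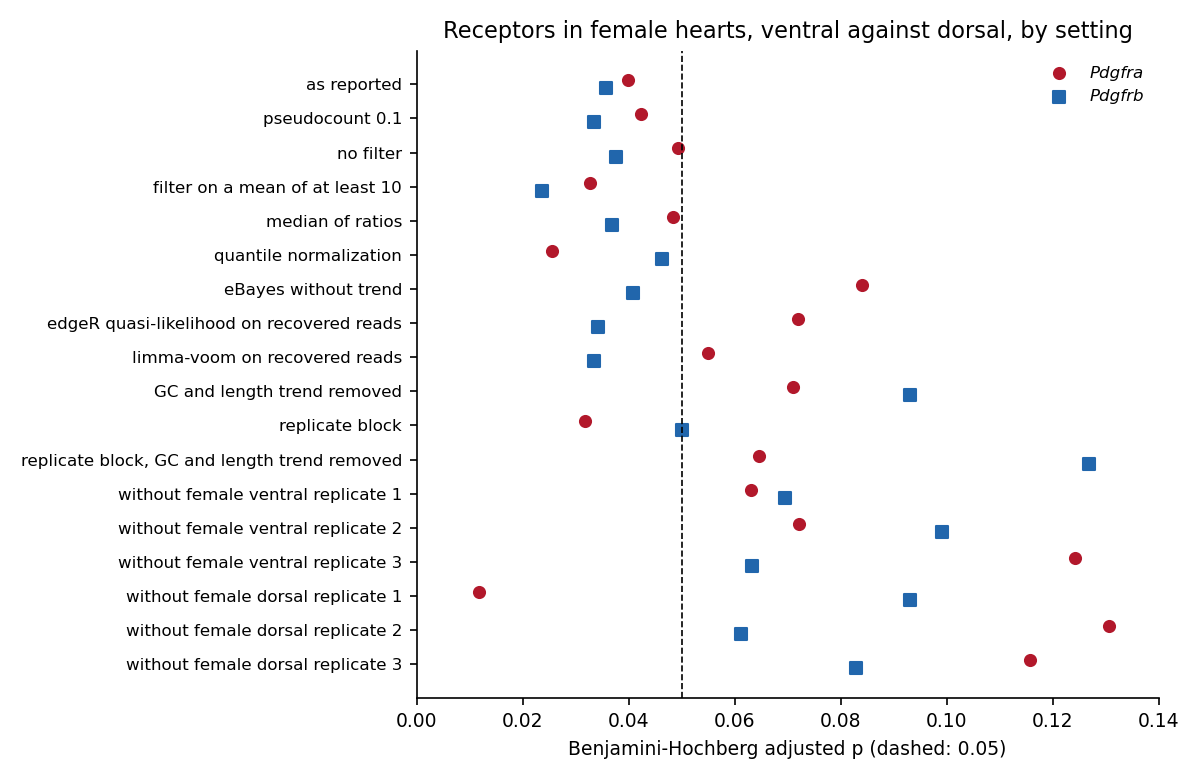
Benjamini-Hochberg adjusted p (horizontal axis, linear; dashed line at 0.05) of the ventral against dorsal difference in female hearts for Pdgfra (circles) and Pdgfrb (squares) under the reported and 17 alternative settings. Pdgfra keeps its call in 7 and Pdgfrb in 8 of the alternatives, and the other points lie at 0.05004 to 0.131.

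Over both sexes, with sex in the model, 0 of 6 members passed the limma test (beside 18.9% of all genes), and 2 of 6 had an unadjusted p under 0.05 (34.5% of all genes). These were again the receptors, Pdgfra with a ventral minus dorsal difference of 0.45 (95% interval 0.08 to 0.82, adjusted p = 0.0785) and Pdgfrb with 0.44 (0.05 to 0.82, adjusted p = 0.0991). edgeR and limma-voom on the recovered reads called 0 members as well. Male pool 4 mattered here: without its ventral library Pdgfra was called (0.58, adjusted p = 0.0106), and without its dorsal library Pdgfrb was called (0.58, adjusted p = 0.0373).

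In the male comparison alone 0 of 6 members passed (0% of all genes), by limma, edgeR and limma-voom alike, with 1 of 6, Pdgfa, at an unadjusted p under 0.05, as 2083 of 14917 genes had. The 6 male differences were all above 0, which held for 52.9% of all genes, with a median of 0.36 against 0.03 over all genes. Pdgfc is counted there though it passed the filter only through ventral libraries, so its direction adds nothing to this count. In females 4 of 6 were above 0 (50.7% of all genes), with a median of 0.26 against 0.01. For the sex difference of the regional change 0 of 6 members were called, beside 2.73% of all genes, with 1 of 6, Pdgfc, at an unadjusted p under 0.05 (15.4% of all genes); edgeR and limma-voom called 0 too.

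Between the sexes, with region in the model, 0 of 6 members passed the test, beside 10.9% of all genes, by limma, edgeR and limma-voom, and 1 of 6 had an unadjusted p under 0.05 (25.6% of all genes). Pdgfra came nearest, higher in males by 0.41 (95% interval 0.05 to 0.78, unadjusted p = 0.0302, adjusted p = 0.143), with 71.8 ± 18.7 normalized CPM in 7 male and 52.7 ± 15.1 in 6 female libraries (SD). Leaving out male ventral library 4 gave 0.55 and a call (adjusted p = 0.0125). Pdgfd was 26.01 ± 9.51 in males and 18.4 ± 4.89 in females, a difference of 0.43 that did not pass (adjusted p = 0.267). For Pdgfa, Pdgfb, Pdgfc and Pdgfrb the male minus female differences were -0.20, -0.45, -0.59 and 0.13, with adjusted p of 0.361 to 0.707. This fit took the ventral and dorsal libraries of a pool as independent, although sex varied only between pools.

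**Figure D4:**
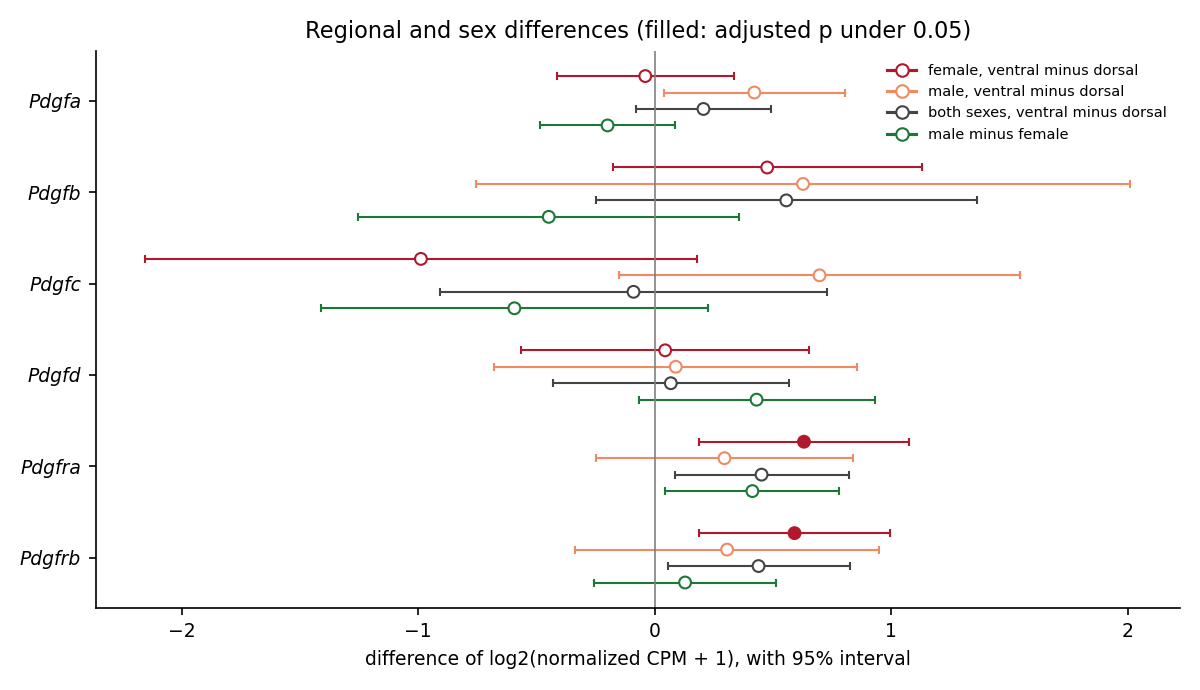
Differences of log2(normalized CPM + 1) with 95% intervals for the 6 PDGF genes: ventral minus dorsal in females, in males and in both sexes, and male minus female. Filled circles passed an adjusted p under 0.05: only Pdgfra (0.63) and Pdgfrb (0.59) in females.

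The receptors were also compared within each library, where the scaling of the library cancels. Pdgfra reads exceeded Pdgfrb reads in all libraries, 1.98 to 2.73 times in female ventral, 1.72 to 3.29 times in female dorsal, 1.19 to 4.08 times in male ventral and 1.69 to 4.67 times in male dorsal libraries. These are ratios of levels not divided by gene length. The log2 ratio differed between sides by 0.000105 over both sexes (exact permutation test within sex, two-sided p = 0.999 over 700 arrangements, smallest possible p = 0.00143, n = 13). It differed by 0.0265 in females and by -0.0230 in males. The SD of the log2 ratio within groups was 0.244 to 0.806, so that the balance of both receptors was not distinguishable between sides at this spread.

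The ratio of the ligand Pdgfa to its receptor Pdgfra, again of levels not divided by length, was 0.764 to 1.07 in female ventral libraries and 1.09 to 1.78 in female dorsal libraries. These ranges nearly meet but do not overlap, in a comparison built on the same receptor values as above. The dorsal side was the higher one here. Among single genes, 23.2% had female groups without overlap in the other direction, higher ventrally, which is no matching background. The share among ratios was not measured. In males the ratio of Pdgfa to Pdgfra was 0.540 to 1.30 ventrally and 0.660 to 0.740 dorsally, with overlap. The ratio of Pdgfb to Pdgfrb was 0.244 to 0.435 and 0.286 to 0.425 in female ventral and dorsal libraries and 0.115 to 0.556 and 0.0698 to 0.333 in male ones, also overlapping. In females Pdgfc to Pdgfra was 0.00471 to 0.0248 ventrally and 0.0234 to 0.129 dorsally. Pdgfd to Pdgfrb was 0.519 to 0.961 and 0.776 to 1.27 there, and both of these ratios overlapped between sides.

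Cell type markers were set beside the receptors, in samples in which fewer cells of a type and less RNA per cell cannot be told apart. Of 8 fibroblast markers, 5 rose ventrally in females, among them Col1a1 (difference 2.46) and Dcn (1.89), and the summed level was 11846 to 22455 ventrally and 2982 to 4851 dorsally. Tcf21, Lum and Postn did not pass (0.58, 0.39 and -0.01). In males the fibroblast sums were 11193 to 25712 ventrally and 7446 to 12771 dorsally, with 0 of 8 called. The part of fibroblast content in the level of Pdgfra was not tested.

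Mural cell markers went both ways. Of 9, Cspg4 (1.18) and Notch3 (0.75) were higher ventrally in females, as Pdgfrb was, while Rgs5 (-1.05), Myh11 (-1.68) and Cnn1 (-1.28) were lower. Their summed level was 841 to 1282 in female ventral, 1378 to 1713 in female dorsal, 490 to 1607 in male ventral and 1222 to 1724 in male dorsal libraries. Acta2, the smooth muscle actin gene, made up 514 to 878 of the female ventral sums and was not called (difference -0.42, adjusted p = 0.189). The part of mural cell content in the level of Pdgfrb was not tested. In addition, 10 of 10 epicardial, 4 of 5 macrophage and 2 of 5 lymphatic markers rose ventrally in females, beside 14.5% of all genes. None of 7 blood endothelial markers was called. Of the cardiomyocyte and erythroid markers, Ttn and Ryr2 were called higher ventrally in females and Nppa and Alas2 lower. In males no marker was called, nor was any other gene. No marker of the fibroblast, mural or endothelial lists was at the floor in all libraries of a group. Myh11 was at the floor in female ventral libraries 2 and 3 and male ventral library 6, and the lymphatic marker Reln in male dorsal library 6.

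**Figure D5:**
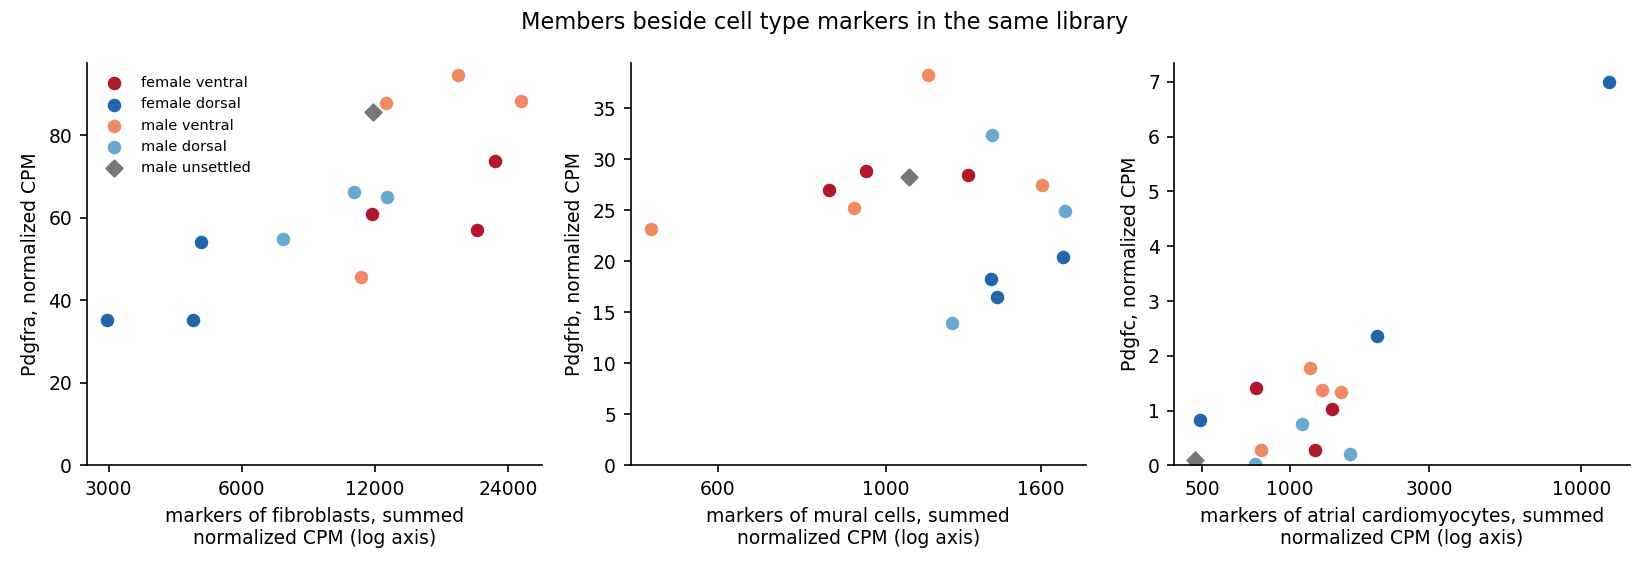
Normalized CPM of Pdgfra, Pdgfrb and Pdgfc (vertical axes, from 0) against the summed normalized CPM of fibroblast, mural and atrial markers (horizontal log axes) in the same library; points are libraries coloured by group. Female dorsal libraries are lowest for fibroblast markers, female ventral libraries lie at 841 to 1282 of the mural sum, and female dorsal library 1 stands apart at an atrial sum of 12455.

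Correlations between members over the libraries went both ways. The highest Pearson correlation of log2(value + 1) between members over the 14 libraries was 0.61, of Pdgfb with Pdgfrb, and the next 0.59, of Pdgfd with Pdgfra; the receptors themselves gave 0.17. Once group means were removed, the 15 pairs ranged from -0.68 (Pdgfd with Pdgfrb) to 0.73 (Pdgfc with Pdgfra) over 13 libraries, with 0.69 for Pdgfb with Pdgfrb and -0.63 for the receptors. These values are descriptive, since the libraries share groups and pools. Among 11324 genes with a mean of at least 5 normalized CPM, those most like each member over the 14 libraries were Rnf215, Tpst1 and Cnksr3 for Pdgfa (r = 0.860, 0.853 and 0.845), Obsl1, Dmd and Pi4ka for Pdgfb (0.857, 0.846 and 0.839) and Mapk10, Gm47547 and Cobl for Pdgfc (0.808, 0.793 and 0.787). For Pdgfd they were Idh1, Ddit4l and Gm47854 (0.923, 0.913 and 0.892), for Pdgfra P4hb, Srpx2 and Dpp7 (0.932, 0.922 and 0.920) and for Pdgfrb Txlna, Pcnt and Cit (0.934, 0.917 and 0.901). No other member was among them.

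Of 32 further genes of PDGF signalling, 31 were tested in the female comparison, where 10 rose ventrally and 1 fell, beside 14.5% and 13.3% of all genes. The median difference of the list was 0.24. The count rested on a few libraries: it was 1 without female ventral library 2, 4 without female dorsal library 2 and 6 without female ventral library 3, and 6 after removing the GC and length trend. In males 0 of 31 were called, and over both sexes 7 rose and 1 fell, beside 9.80% and 9.06% of all genes. Over both sexes 3 rose and 0 fell with the pool number as a block, and the 7 became 2 without female ventral library 2 or female dorsal library 2 and 4 without female ventral library 3, female dorsal library 3 or male ventral library 6.

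Among the proteases that process the ligands, Plat, the tissue plasminogen activator, stood at 149 ± 17.3 normalized CPM in female ventral and 97.7 ± 15.8 in female dorsal libraries (difference 0.61, adjusted p = 0.0204). Furin, the protease of the secretory pathway, rose by 0.91 (adjusted p = 0.0147). Plau was tested and not called, and St14 did not pass the filter. Lrp1, an endocytic receptor known to bind the β receptor, showed the strongest change of the list, with 58.8 ± 12.7 against 16.2 ± 2.98 in females (difference 1.79, adjusted p = 8.1e-04) and 60.8 ± 13.8 against 29.1 ± 3.44 in males (1.02, unadjusted p = 5.1e-04, adjusted p = 0.264). Every ventral library exceeded every dorsal library for Lrp1 over both sexes (1.38, adjusted p = 0.0048), as for 1.22% of all genes.

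Pdgfrl, a receptor-like gene without a kinase domain, followed female dorsal library 1 as Pdgfc did. It was 15.6 normalized CPM there and 3.08 and 3.07 in the other female dorsal libraries, against 11.4, 7.56 and 6.60 ventrally. Its female difference was 0.52 (adjusted p = 0.489) with that library and 1.19 (adjusted p = 0.0411) without it. Nrp1, a co-receptor, was not called in females (-0.05).

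Of 15 adaptors and enzymes that active receptors bind, 4 rose and 1 fell ventrally in females. Sos1, an activator of Ras, rose by 0.995, Src by 1.62, Pik3ca, a catalytic subunit of PI 3-kinase, by 0.59 and Plcg1, phospholipase C gamma, by 0.63. Nck2, an adaptor, fell by 1.31. The same 5 genes were called over both sexes in the same direction. Of 6 negative regulators Cbl, the ubiquitin ligase of active receptors, rose by 0.90 and the phosphatase gene Ptprj by 1.54, and of 4 transcription factors Mrtfa, a partner of serum response factor, rose by 0.84 (adjusted p = 0.0497).

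Between the sexes 5 genes of the list passed, 2 higher and 3 lower in males, beside 4.40% and 6.54% of all genes. The ventral and dorsal libraries of a pool again counted as independent in this fit. Crk, an adaptor, was lower in males (difference -1.43, adjusted p = 3.6e-06; 121 ± 19.6 and 123 ± 7.97 normalized CPM in female ventral and dorsal libraries, 49.9 ± 7.31 and 39.0 ± 4.48 in male ones), and Rasa1, a Ras inhibitor, by -0.69. Both lay lower in every male than in every female library, as 2.62% of all genes did. Pik3ca was lower in males too (-0.59), whereas Plat (0.79) and Pik3r2 (0.63), a regulatory subunit of PI 3-kinase, were higher; the count of 2 higher genes fell to 0 or 1 in all fits with a library left out except those without male ventral library 4, male ventral library 5 or male dorsal library 5, and that of 3 lower genes became 5 without male dorsal library 6.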

How the data were processed

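Per the labels and the methods, the authors trimmed single reads of 60 bases from poly(A) libraries with Cutadapt and quantified them with RSEM on the GRCm38 transcriptome. The submitters' processing notes give RSEM 1.3.1, and the methods name another version. The authors normalized with limma and tested only genes reaching 1 CPM in 3 or more libraries. The methods do not give the order of these steps. The deposited signal is this normalized CPM. It equals whole reads plus an offset over an effective library size in 100% of values (within 0.02 reads). Of the 15894 genes, 15 have an identifier without a symbol and stayed in the fits. No column was unmapped.

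Differences were fitted with limma 3.58.1 (R 4.3.3; lmFit, eBayes with trend) to log2(value + 1), for genes reaching 1 in 3 or more libraries entering the fit. Benjamini-Hochberg adjustment ran over all those genes, and calls needed an adjusted p under 0.05. The pseudocount understates changes of low genes such as Pdgfc. Female, male and all settled libraries were fitted for region, the last with sex in the model, sexes with region in the model, and the sex difference of the regional change as an interaction. The ratio of the receptors had an exact permutation test. Positions, lengths and GC content came from GENCODE M21 (15888 genes found). The fits were tested on simulated data.

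Ventral and dorsal libraries share numbers in the labels. Over 15772 genes, deviations of same-numbered libraries from their group means correlated at 0.187, 0.169 and 0.270 in females. In males they correlated at 0.427, 0.175 and 0.351. Libraries of different numbers gave -0.251 to 0.0374 in females and -0.369 to 0.295 in males, the highest for male ventral 7 with dorsal 6. The numbers were taken to pair the libraries, though the male ranges overlap. The reported fits left this pairing out, and the block among the alternatives used it. No 2 libraries of a group agreed within sampling noise. Alternatives were the pseudocount, filters, scaling, the variance prior, edgeR 4.0.16 and limma-voom on the recovered reads, GC content and length, the block, single libraries left out and the unsettled library on either side. The text names the members, the signalling list and, per member, the 3 most correlated genes. Members, lists and tests were chosen with earlier results of these data known. Sequences of Pdgfb and Pdgfrb were not used here.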

Additional observations from a re-analysis of the deposited data

Results flagged for a closer look

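Pdgfra in male ventral libraries had 1 value far from the others: library 4 at 45.5 normalized CPM, beside 87.9, 88.2 and 94.5. Its gap to the nearest value made up 0.864 of the range of the group, above Dixon's critical value of 0.829 for 4 samples. This was 1 of 7 values tested in groups of 4, of which chance flags about 1 in 20. Without this library Pdgfra passed the test over both sexes (difference 0.58, adjusted p = 0.0106) and between the sexes (0.55, adjusted p = 0.0125). Why the library differs was not tested.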

How the results depend on the processing

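In females, where 2 members were called, the count was 1 with eBayes without a trend, with edgeR and with limma-voom (Pdgfrb each time). It was 1 with the replicate block (Pdgfra). It was 0 with the GC and length trend removed, with or without the block, and 0 to 1 with a library left out. Over both sexes, where 0 were called, it was 1 with quantile normalization (Pdgfra, adjusted p = 0.0433) and 0 to 1 with a library left out. Between the sexes, where 0 were called, it was 0 to 1 with a library left out. All other counts of called members kept their value. The block changed no other call of a member, and for the sexes pools could enter only as a random block. With that random block 1684 genes passed between the sexes in place of 1726. Among male genes the replicate block gave 76 calls in place of 0.

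The log2 ratio of both receptors, 0.000105, was -0.0962 in the paired test with sign flips within the replicate block (exact p = 0.625), -0.0211 with the unsettled library as dorsal, and -0.163 to 0.200 with a library left out. The following differences changed sign without passing the test. Female Pdgfa was 0.0668 with quantile normalization, 0.0941 without the GC and length trend, with or without the block, and -0.160 to 0.115 with a library left out. Pdgfd was -0.0430 in females with quantile normalization and -0.0335 in males with the block. With a library left out it was -0.200 to 0.232 in females, -0.126 to 0.372 in males and -0.0360 to 0.198 over both sexes. Pdgfc over both sexes was 0.216 with a pseudocount of 0.1, 0.00988 with the unsettled library as dorsal and -0.274 to 0.235 with a library left out. In males, Pdgfb (0.63 with all libraries) was -0.0725 to 1.22 and Pdgfrb (0.31) -0.0208 to 0.560 with a library left out, both below 0 without male dorsal library 6. For the sex difference of the regional change, Pdgfb was -0.0453 with edgeR and -0.548 to 0.740 with a library left out. Pdgfd was -0.180 without the GC and length trend, -0.0777 with the block, -0.305 with both, -0.0423 with the unsettled library as dorsal and -0.170 to 0.327 with a library left out. The causes were not tested. Depth limits Pdgfc most, with 0 to 151 reads a library, and fits with a library left out have fewer samples.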
